A study of Mus musculus with 13 samples.

Results

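The R-spondin and Wnt signals that set up liver zonation were followed here through 10 genes of the whole-liver count table of 22048 genes. They were chosen by symbol. The ligands are Rspo1, Rspo3, Wnt2 and Wnt9b, the receptors Lgr4 and Lgr5, the surface ubiquitin ligases Znrf3 and Rnf43, and the remaining 2 are the target genes Axin2 and Tbx3. The series holds mRNA counts from 13 mouse livers. The labels divide them into 6 controls that kept their hepatic stellate cells (3 male, 3 female), 4 livers depleted of these cells (1 male, 3 female) and 3 undepleted livers taken 72 h after partial hepatectomy (2 male, 1 female). Stellate cells wrap the sinusoids and store vitamin A, and partial hepatectomy is surgery that leaves a liver remnant to regrow. Strain, genotype, age, the agent or transgene used for depletion, and any treatment that the controls shared are not given in the sources used here. The study's title concerns stellate cells and hepatocyte proliferation.

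Hepatocytes along the liver sinusoid divide their work by position. Those around the central vein carry Wnt/beta-catenin activity and express glutamine synthetase and much of the cytochrome P450 system, whereas those near the portal vein carry the urea cycle and gluconeogenesis. Wnt2 and Wnt9b are secreted by endothelial cells, mainly near the central vein, and Rspo3 by stellate and central vein cells. R-spondins bind Lgr receptors and keep the ubiquitin ligases Znrf3 and Rnf43 from clearing the Wnt receptors off the cell surface, so they raise the response to Wnt. Axin2, Lgr5, Znrf3 and Rnf43 are themselves switched on by the pathway and serve as readouts of it, and Tbx3 is a transcription factor gene of pericentral hepatocytes.

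Library totals ran from 35360991 to 51008737 counts, so that 3 counts corresponded to 0.0588 to 0.0848 CPM (read counts scaled to library size). The labels number the libraries as replicates without naming animals, so p-values measure the spread between these samples. As a check of the labels, the summed level of 5 hepatocyte markers was 63570 to 163600 CPM over all livers. That of 16 stellate markers was 350.2 to 885 CPM in controls, 406 to 740 CPM in hepatectomised livers and 16.4 to 128 CPM in depleted livers, with the highest depleted value in replicate 4. Control replicate 6 stood apart, with the lowest sum in its group for stellate markers and for 15 endothelial markers (144 CPM against 442 to 643 CPM in the other controls). Among hepatectomised livers, replicate 2 had the lowest stellate sum and an endothelial sum of 156 CPM against 356 and 440 CPM. Its 8 proliferation markers summed to 593 CPM against 98.4 and 199.9 CPM, and without it 483 genes in place of 1164 were called after hepatectomy. Whole-liver counts cannot tell fewer cells of a type from less RNA per cell.

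In depleted livers, 7 of the 10 genes were lower than in controls by edgeR's quasi-likelihood test at an adjusted p under 0.05. Over all 13831 tested genes, 33.9% were called in this comparison, 15.0% lower and 18.9% higher. The ligand Rspo3, both Lgr receptors, both ubiquitin ligases, Axin2 and Tbx3 fell, between 1.57-fold for Lgr4 and 6.95-fold for Lgr5. The endothelial ligands Wnt2 and Wnt9b did not pass. After hepatectomy, Rnf43 and Axin2 were called lower. Over all genes 8.42% were called there, 6.06% higher and 2.36% lower. All 10 passed the low-count filter, but Rspo1, with at most 8 counts in any control, did so through the depleted and hepatectomised livers. It was called higher in both, which the filter favours, so it is not counted here and its values are given as a description.

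**Figure D1:**
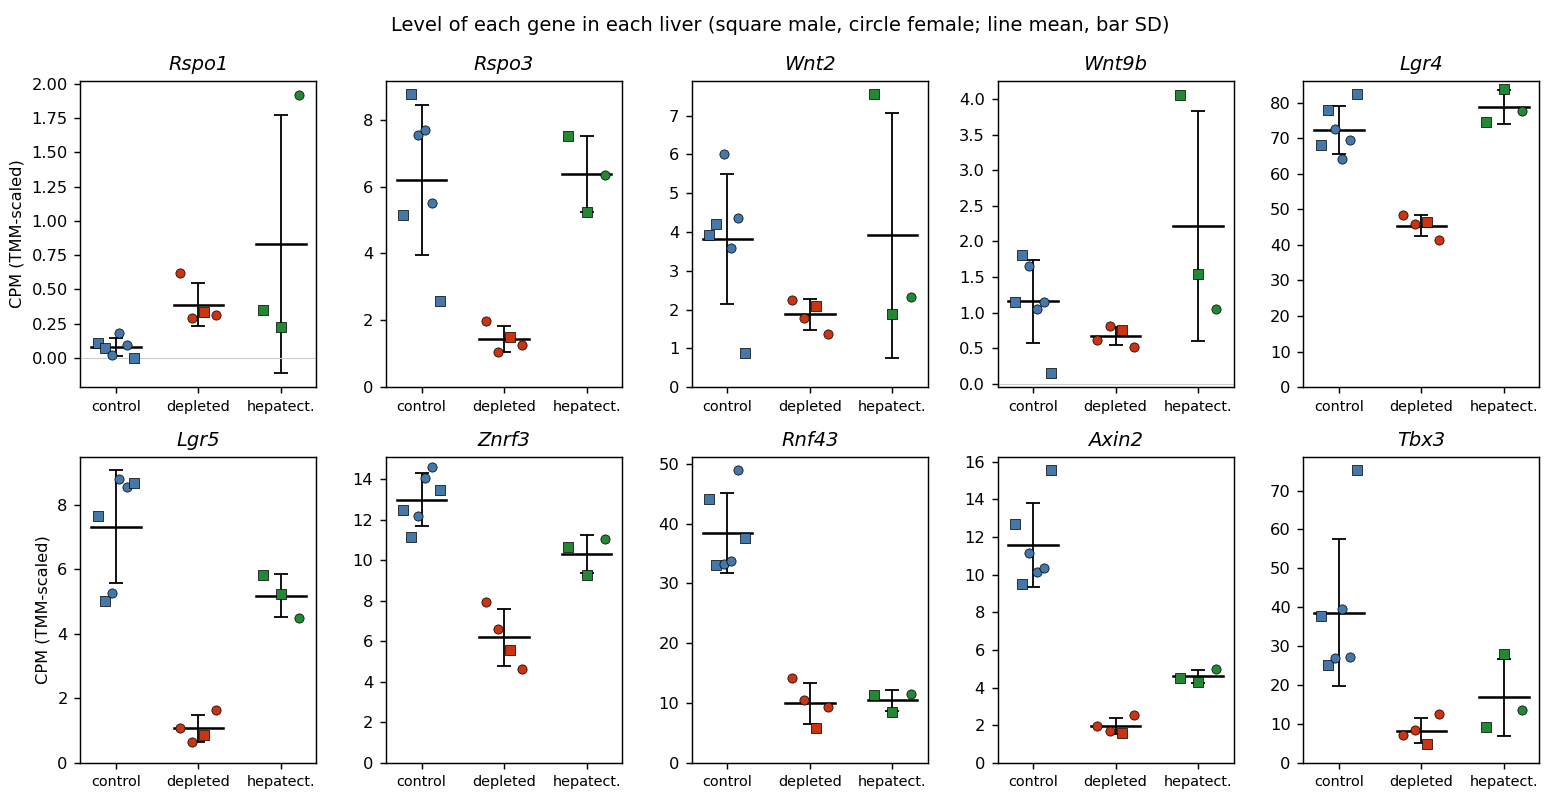
TMM-scaled CPM of the 10 genes in every liver, 1 panel per gene, for control (n = 6), stellate cell-depleted (n = 4) and hepatectomised (n = 3) livers; squares are males, circles females, lines group means and bars SD. For 7 genes every depleted liver lies below every control, against 11.9% of all tested genes, Rspo1 lies above (16.5%), and Wnt2 and Wnt9b overlap.

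Among the ligands, Rspo3 (chromosome 10, 29452416 to 29535867, GRCm38, minus strand, protein coding) showed the clearest difference. Control livers had 2.58 to 8.77 CPM with a median of 6.53 CPM. The 4 depleted livers had 1.97, 1.05, 1.502 and 1.25 CPM, and the hepatectomised livers 7.52, 5.25 and 6.36 CPM. Every depleted liver thus lay below every other liver, while hepatectomised livers lay inside the control range. The log2 fold change was -2.13 ± 0.34 (SE) against control (edgeR adjusted p = 0.000398), a 4.38-fold lower level. It was 0.07 ± 0.34 after hepatectomy (edgeR adjusted p = 0.929), with a 95% interval of -0.66 to 0.80. Depleted and hepatectomised livers differed directly by -2.20 ± 0.38 (SE, edgeR adjusted p = 0.00163).

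In 3 of the 4 depleted livers Rspo3 was higher relative to the stellate markers than in any control, and in replicate 4 it was within the control range. Its level was 0.715% to 1.08% of the summed stellate markers in controls and 0.859% to 1.29% in hepatectomised livers. In depleted livers it was 7.47%, 6.44%, 4.07% and 0.977%, the last in replicate 4. In replicates 1 to 3 the marker sum itself was only 26.4, 16.4 and 36.9 CPM, with 5 or 6 of the 16 markers at 0 counts. A share of so low a sum does not give Rspo3 per stellate cell. Replicate 4 had the highest stellate sum of its group at 128 CPM, but its Rspo3 of 1.25 CPM was within the range of the other 3. Relative to the 15 endothelial markers, Rspo3 was 0.153% to 0.349% in depleted livers, 0.858% to 1.79% in controls and 1.71% to 3.36% in hepatectomised livers. Relative to 5 markers of central vein endothelium it was 1.86% to 3.87% in depleted livers, 22.2% to 52.9% in controls and 17.1% to 21.4% in hepatectomised livers. Hepatectomised livers thus lay toward the upper end of the controls or above them by the first measure, and below them by the second. The sum of the 5 central vein markers was itself higher in every depleted and hepatectomised liver than in any control. Control replicate 6, with the lowest Rspo3 of the controls, was also the lowest in both marker sums. The part of these cell types in the Rspo3 difference was not tested.

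Rspo1 (chromosome 4, 124986430 to 125009099, plus strand) was near the limit of detection in controls. They had 0 to 8 counts each, with a median of 0.0839 CPM and a highest value of 0.180 CPM. Depleted livers had 0.621, 0.291, 0.332 and 0.312 CPM, and hepatectomised livers 0.353, 0.225 and 1.92 CPM. Both groups lay wholly above the controls, as for 16.5% and 7.41% of all tested genes, and overlapped each other. Rspo1 passed the low-count filter through these livers, which favours a call as higher. The fitted values are therefore a description, with no weight as a test. The log2 fold change was 2.04 ± 0.66 (SE, edgeR adjusted p = 0.0292) in depleted and 3.23 ± 0.68 (SE, edgeR adjusted p = 0.0133) in hepatectomised livers. The first call was lost when control replicate 3 (1.75, edgeR adjusted p = 0.0636), control replicate 5 (1.96, 0.0659), depleted replicate 1 (1.89, 0.0708) or depleted replicate 3 (1.59, 0.165) was left out, and among females alone (2.01, 0.0893). The second was lost without hepatectomised replicate 3, at 2.08 (edgeR adjusted p = 0.166). That liver had the highest sum of 4 mesothelial markers, cells that line the liver surface, at 39.6 CPM. The other hepatectomised livers had 12.2 and 7.44 CPM, controls 1.08 to 3.73 CPM and depleted livers 1.80 to 3.34 CPM. Of these 4 markers, 3 were called higher after hepatectomy, against 6.06% of all tested genes. The part of mesothelial cells in the Rspo1 difference was not tested.

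Wnt2 (chromosome 6, 17988940 to 18030585, minus strand) ranged in controls from 0.870 CPM in replicate 6 to 6.02 CPM, with a median of 4.06 CPM. Depleted livers had 2.25, 1.79, 2.10 and 1.36 CPM, below 5 of the 6 controls and above replicate 6. Hepatectomised livers were scattered at 7.55, 1.88 and 2.32 CPM. The log2 fold change in depleted livers was -1.04 ± 0.50 (SE, edgeR adjusted p = 0.126), with a 95% interval of -2.11 to 0.04. Without control replicate 6 it was -1.22 (edgeR adjusted p = 0.0298), and among females alone -1.36 (edgeR adjusted p = 0.0205). These were the 2 of 24 alternatives in which it passed; without control replicate 6 and depleted replicate 4 together it was -1.10 (edgeR adjusted p = 0.0692). After hepatectomy the log2 fold change was 0.06 ± 0.55 (SE, edgeR adjusted p = 0.964).

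Of 15 endothelial markers, 3 were called higher in depleted livers, a share near the 18.9% of all tested genes, and their median log2 fold change was 0.30. Wnt2 as a share of their summed level was 0.603% to 0.951% in controls and 0.261% to 0.380% in depleted livers. These ranges did not overlap, and control replicate 6 had the lowest control share, 0.603%. In hepatectomised livers the share was 1.72%, 1.20% and 0.652%. Relative to the central vein markers, depleted livers had 2.80% to 4.42% of Wnt2, again below all controls (7.47% to 29.4%). Hepatectomised livers had 7.41% to 17.1%, with a median of 7.67% against 22.8% in controls. The shares of Wnt9b did overlap. Of the endothelial sum they were 0.104% to 0.340% in controls and 0.0873% to 0.143% in depleted livers. Of the central vein sum they were 1.29% to 8.07% and 1.05% to 1.43%. Both overlaps rested on control replicate 6, at 0.104% and 1.29%. The other controls were at 0.178% or more and at 6.04% or more. These shares are a description, with no test. Of 5 markers of central vein endothelium, 4 were called higher in depleted livers, against 18.9% of all tested genes. After hepatectomy 2 of the 5 were, against 6.06%. Their summed level was 48.6 to 56.8 CPM in depleted livers, 24.5 to 44.1 CPM in hepatectomised livers and 11.6 to 22.8 CPM in controls. The part of this endothelium in the levels of the Wnt genes was not tested.

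Wnt9b (chromosome 11, 103727364 to 103749821, minus strand) had a control median of 1.149 CPM and a range of 0.150 CPM in replicate 6 to 1.80 CPM. Depleted livers had 0.621, 0.806, 0.751 and 0.512 CPM and hepatectomised livers 4.06, 1.54 and 1.05 CPM. All depleted livers were below all hepatectomised livers, as for 15.9% of all tested genes (18.1% lay wholly above). Against control neither group passed, at -0.76 ± 0.55 and 0.85 ± 0.60 (log2 fold change ± SE, edgeR adjusted p = 0.322 and 0.415). The direct difference of -1.61 ± 0.69 (SE) did not pass either (edgeR adjusted p = 0.111), except without control replicate 6, where it was -1.44 (edgeR adjusted p = 0.0385). As with Wnt2, the highest value after hepatectomy was in replicate 1.

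**Figure D2:**
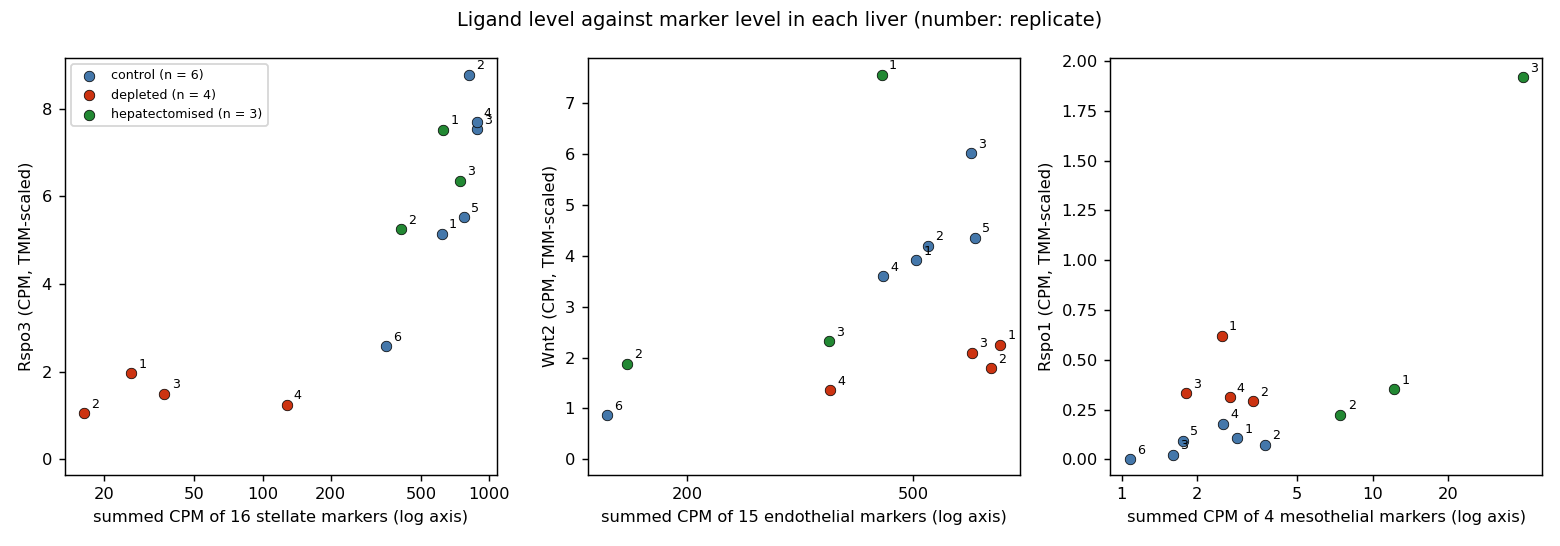
Level of 3 ligands (vertical axis, TMM-scaled CPM) against the summed CPM of marker genes in the same liver (horizontal log axis), with the replicate number beside each point. Rspo3 is low in all 4 depleted livers including replicate 4 at 128 CPM of stellate markers. Wnt2 in depleted livers lies below every control but replicate 6, and the highest Rspo1 accompanies the highest mesothelial sum.

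The receptors differed in size of response. Lgr4 (chromosome 2, 109917647 to 110014257, plus strand), the broadly expressed R-spondin receptor, had 64.1 to 82.3 CPM in controls with a median of 71.0 CPM. Depleted livers had 48.3, 45.8, 46.4 and 41.2 CPM and hepatectomised livers 74.6, 83.9 and 77.6 CPM. The depleted livers formed a tight group below all others. The log2 fold change was -0.65 ± 0.10 (SE, edgeR adjusted p = 0.000313), against 0.11 ± 0.10 after hepatectomy (edgeR adjusted p = 0.568).

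Lgr5 (chromosome 10, 115450311 to 115587780, minus strand), the receptor restricted to pericentral hepatocytes, had 5.02 to 8.81 CPM in controls with a median of 8.10 CPM. It was at 1.09, 0.650, 0.873 and 1.65 CPM in depleted livers and at 5.82, 5.22 and 4.49 CPM in hepatectomised livers. Depleted livers were far below all others, whereas hepatectomised livers sat at the lower end of the controls and 1 was below them. Lgr5 had the largest fall of the 10, 6.95-fold, at -2.80 ± 0.31 (log2, SE, edgeR adjusted p = 3.16e-05). After hepatectomy it did not pass, at -0.49 ± 0.30 (SE, edgeR adjusted p = 0.345), and the direct difference was -2.31 ± 0.34 (SE, edgeR adjusted p = 0.000635).

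The ubiquitin ligases parted after hepatectomy. Znrf3 (chromosome 11, 5276324 to 5444847, minus strand) had 11.1 to 14.6 CPM in controls with a median of 12.95 CPM, 7.93, 6.61, 5.59 and 4.61 CPM in depleted livers, and 10.6, 9.26 and 11.05 CPM in hepatectomised livers. Hepatectomised livers lay below every control, by a narrow margin, as for 6.25% of all tested genes. The log2 fold change was -1.11 ± 0.16 (SE, edgeR adjusted p = 0.00023) in depleted livers and -0.305 ± 0.17 (SE, edgeR adjusted p = 0.293) after hepatectomy. The groups differed directly by -0.80 ± 0.19 (SE, edgeR adjusted p = 0.0087), which did not pass with library-size scaling (-0.49, 0.0666) or in a fit of these 2 groups alone (-0.83, 0.0796).

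Rnf43 (chromosome 11, 87662722 to 87735539, plus strand) had 33.1 to 49.0 CPM in controls with a median of 35.7 CPM. It was at 14.1, 10.6, 5.83 and 9.31 CPM in depleted livers and 11.4, 8.48 and 11.6 CPM in hepatectomised livers. Both groups lay well below the controls and overlapped each other. The log2 fold changes were -2.05 ± 0.22 and -1.84 ± 0.24 (SE, edgeR adjusted p = 2.98e-05 and 0.00123). The direct difference was -0.21 ± 0.25 (SE, edgeR adjusted p = 0.588), with a 95% interval of -0.76 to 0.34. Among all genes, Rnf43 ranked 46th by p-value after hepatectomy.

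Axin2 (chromosome 11, 108920349 to 108950783, plus strand), whose product is part of the complex that destroys beta-catenin, took 3 separate levels. Controls had 9.49 to 15.6 CPM with a median of 10.8 CPM, hepatectomised livers 4.50, 4.29 and 4.99 CPM, and depleted livers 1.97, 1.70, 1.59 and 2.52 CPM. No liver of one group fell within the range of another. The log2 fold changes against control were -2.57 ± 0.21 in depleted and -1.33 ± 0.22 in hepatectomised livers (SE, edgeR adjusted p = 5.52e-06 and 0.00421). The direct difference was -1.24 ± 0.23 (SE, edgeR adjusted p = 0.00262). Of the 10 genes, Axin2 had the smallest p-value in depleted livers.

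Tbx3 (chromosome 5, 119670669 to 119684724, plus strand) had 25.2 to 39.6 CPM in 5 controls and 75.2 CPM in control replicate 6. Depleted livers had 7.175, 8.47, 4.79 and 12.6 CPM, all below the controls. Hepatectomised livers had 9.11, 28.0 and 13.5 CPM, so replicate 2 was inside the control range and the others below it. The log2 fold change was -2.14 ± 0.445 (SE, edgeR adjusted p = 0.00283) in depleted livers. After hepatectomy it was -1.22 ± 0.45 (SE, edgeR adjusted p = 0.121), which passed by DESeq2 (adjusted p = 0.0313).

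**Figure D3:**
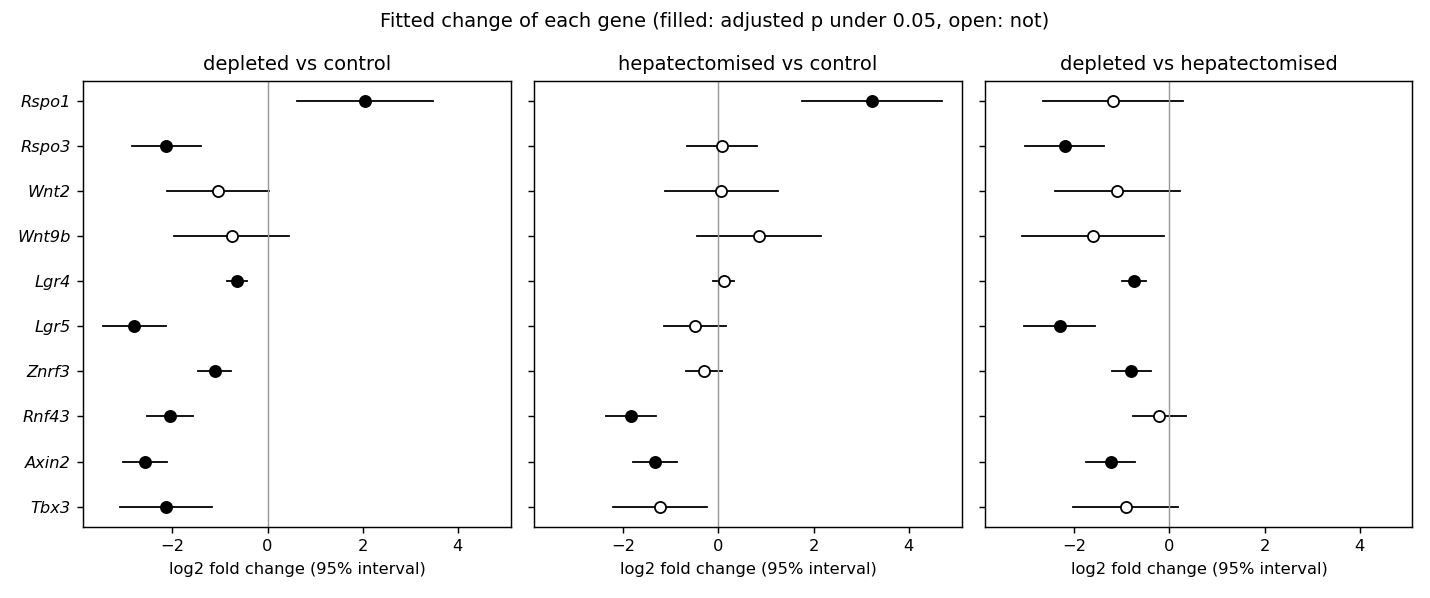
Fitted log2 fold change of each gene with its 95% interval in the 3 comparisons; filled points have an adjusted p under 0.05 by edgeR's quasi-likelihood test. In depleted livers 7 genes passed as lower (15.0% of all tested genes did), and after hepatectomy Rnf43 and Axin2 (2.36%). Rspo1, which passed the low-count filter through these livers, is filled as higher in both.

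Set directly against hepatectomised livers, the depleted livers had 5 of the 10 genes called lower, against 10.1% of all tested genes. These were Rspo3, Lgr4, Lgr5, Znrf3 and Axin2. Both sets of changes against control rest on the same 6 control livers. Since TMM and library-size scaling differ for hepatectomised livers (over all genes the median change was -0.02 with the former and -0.24 with the latter), small changes there depend on the scaling. With library size alone, Rspo3, Wnt2 and Lgr4 had values of -0.15, -0.17 and -0.10 after hepatectomy.

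Per length, the order of levels in controls was as follows. Lgr4 was highest, at 28.7 ± 1.43 TPM (counts scaled to gene length and library size, SD, n = 6). Rnf43 at 13.8 ± 2.86 TPM and Tbx3 at 13.3 ± 5.10 TPM did not differ beyond their spread. Next came Rspo3 at 6.21 ± 2.47, Axin2 at 4.87 ± 0.545, Wnt2 at 4.07 ± 1.81 and Znrf3 at 3.87 ± 0.642 TPM, whose spreads overlapped. Lgr5 had 1.68 ± 0.457 TPM, Wnt9b 0.615 ± 0.303 TPM and Rspo1 0.102 ± 0.0871 TPM. Of the 2 R-spondin genes, Rspo3 had the higher level in controls. In depleted livers its level of 1.59 ± 0.482 TPM (SD, n = 4) was still above Rspo1, at 0.529 ± 0.224 TPM.

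The wider pathway was described with lists of its ligands, receptors, inhibitors, relay proteins and targets. Of the genes called in these and the zonation lists, apart from the 10, 18 of 40 kept their call in every alternative in depleted livers. After hepatectomy 1 of 12 did, Fzd8, and 10 of 26 did in the direct comparison. Of 23 Wnt and R-spondin genes, 8 were expressed enough to be tested. Besides the genes above, the Wnt ligand gene Wnt4 had a median of 3.06 CPM (highest 6.38 CPM) in controls and 0.214 to 1.51 CPM in depleted livers. It fell by 2.82 ± 0.573 on the log2 scale (SE, edgeR adjusted p = 0.0022), and did not pass among females alone (-2.58, edgeR adjusted p = 0.0548). Wnt5b was called higher after hepatectomy, by 1.43 ± 0.38 (SE, edgeR adjusted p = 0.0342), but the call was lost in 9 of 23 alternatives. Those included leaving out control replicate 1, 2 or 6, depleted replicate 3, or hepatectomised replicate 1 or 2, the last giving 1.04 (edgeR adjusted p = 0.165). Neither Porcn nor Wls, which are needed for Wnt secretion, passed against control by edgeR, Porcn at -0.47 and -0.17 and Wls at -0.065 and -0.12 in depleted and hepatectomised livers.

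Of 12 tested receptors and co-receptors, 7 were lower in depleted livers, namely both Lgr genes, Fzd5, Fzd6, Fzd7, Fzd8 and Ryk, where 15.0% of all tested genes were lower. Their count was 4 without depleted replicate 3 and 3 among females alone. After hepatectomy 4 were lower, Fzd4, Fzd5, Fzd7 and Fzd8, where 2.36% of all tested genes were. That count was 2 without hepatectomised replicate 1 or 2 and 1 without replicate 3. Fzd8 had the largest fall of the 4, with 11.3 to 19.6 CPM in controls, 3.03 to 4.31 CPM after hepatectomy and 5.12 to 9.87 CPM in depleted livers. The co-receptors Lrp5 and Lrp6 did not pass against control, at -0.16 and -0.28 in depleted and 0.41 and 0.01 in hepatectomised livers. Of 7 tested inhibitors, Notum, Rnf43 and Znrf3 were lower in depleted livers, and Dkk3 was higher at 1.11 ± 0.326 (SE, edgeR adjusted p = 0.0183). Without depleted replicate 3, the only male of its group, Dkk3 was at 0.65 (edgeR adjusted p = 0.241).

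Among 18 intracellular relay and nuclear genes, 3 were lower (Apc2, Pygo1 and Bcl9l) and 1 higher (Lef1) in depleted livers, shares close to or below those of all tested genes. Apc2 passed the low-count filter only through the controls, where it is high, which leaves 2 lower without it. Without depleted replicate 3, Pygo1 was at -1.67 (edgeR adjusted p = 0.0536) and Lef1 at 1.81 (edgeR adjusted p = 0.102). Bcl9l did not pass among females alone (edgeR adjusted p = 0.0961). Ctnnb1, the gene of beta-catenin itself, was at -0.26 (edgeR adjusted p = 0.0788). The median of the list was -0.18. After hepatectomy Dvl2 and Bcl9 were called lower, where 2.36% of all tested genes were, and the median was -0.14. Both calls were lost without hepatectomised replicate 2 (edgeR adjusted p = 0.0751 and 0.0896), and that of Bcl9 also without replicate 1 (0.0562).

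Of 14 general Wnt target and feedback genes, 11 were lower in depleted livers and 2 higher, with a median log2 fold change of -1.88. Over all tested genes 15.0% were lower and 18.9% higher, and the median was -0.03. The list includes 5 of the 10 genes above. Nkd2 passed the low-count filter only through the controls, which leaves 10 lower without it. Of the others, Notum, a secreted inhibitor of Wnt proteins, had 35.6 to 44.8 CPM in controls and 5.24 to 12.03 CPM in depleted livers. It fell by 2.26 ± 0.231 on the log2 scale (SE, edgeR adjusted p = 2.12e-05). Nkd1, an intracellular inhibitor, changed by -2.27 ± 0.19 (SE, edgeR adjusted p = 5.84e-06). Tnfrsf19, Ccnd1, Nkd2 and Sp5 were also called lower. Without depleted replicate 3, Tnfrsf19 and Ccnd1 did not pass (edgeR adjusted p = 0.0595 and 0.0634), nor did Ccnd1 without control replicate 4 or 5 or depleted replicate 1 or 2. The 2 called higher were Myc and Lef1, at 2.01 ± 0.44 and 2.33 ± 0.58 (SE). Lef1 is also a T lymphocyte gene, and 5 of 6 lymphocyte markers were called higher in the same livers, besides Cd8a, which passed the low-count filter only through them, with a summed level of 30.5 to 70.5 CPM against 2.09 to 4.07 CPM in controls. All 6 myeloid markers were called higher as well, with a summed level of 587 to 1025 CPM in depleted livers against 15.3 to 116 CPM in controls. The part of these cells in the differences of Lef1, Myc and the other genes was not tested.

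After hepatectomy 2 of these 14 genes were called lower, Axin2 and Rnf43, where 2.36% of all tested genes were. The median of the 14 was -0.63, against -0.02 over all tested genes. Notum and Nkd1 did not pass, at -0.20 ± 0.22 and -0.36 ± 0.19 (SE, edgeR adjusted p = 0.625 and 0.272). In the direct comparison both were lower in depleted livers, by -2.06 ± 0.25 and -1.91 ± 0.21 (SE, edgeR adjusted p = 0.000211 and 0.00012). Hepatectomised livers thus had Axin2 and Rnf43 low, with Lgr5, Notum and Nkd1 at levels that did not pass against control. The 8 proliferation genes followed in these data, Mki67 among them, were all called higher after hepatectomy, and 5 of 8 in depleted livers. Over all tested genes 6.06% were called higher after hepatectomy and 18.9% in depleted livers.

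The promoters of Axin2, which had the smallest p-value of the 10 in depleted livers, and of Sp5, a Wnt target gene with a near-threshold fall, are shown from RefSeq (GRCm38.p6) over the 250 bases before the start of transcription. Capitals mark matches to the letters CTTTGAT, or else CTTTGAA, or else CTTTGTT, or else CTTTGTA, which are forms of the site bound by TCF and LEF factors, searched on both strands.
Axin2, chr11:108920099-108920348, plus strand: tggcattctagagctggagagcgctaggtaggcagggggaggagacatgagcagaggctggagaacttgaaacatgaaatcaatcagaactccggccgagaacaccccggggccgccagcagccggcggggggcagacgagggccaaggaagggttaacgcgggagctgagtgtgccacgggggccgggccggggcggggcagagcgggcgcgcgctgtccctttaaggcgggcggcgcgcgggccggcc
Sp5, chr2:70474673-70474922, plus strand: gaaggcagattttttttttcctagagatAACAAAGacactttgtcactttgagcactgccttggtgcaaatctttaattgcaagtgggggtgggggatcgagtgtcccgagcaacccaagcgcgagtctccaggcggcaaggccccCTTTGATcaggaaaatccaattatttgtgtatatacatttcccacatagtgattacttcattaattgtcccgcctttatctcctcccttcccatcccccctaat
Sp5 held 2 matches, CTTTGTT on the minus strand and CTTTGAT on the plus strand, the latter starting 104 bases before the gene. Axin2 held none in this window. RefSeq promoters were matched for 6 of the 10 genes (7 windows, Rnf43 having 2 starts), and no window of theirs held a match, which says only that these letters are absent from these bases. Of 14 windows of 8 target genes (Axin2 and Rnf43 among them), 3 held a match, 1 each of Sp5, Lef1 and Tnfrsf19, while Nkd1, Nkd2 and Tcf7 held none. Over 32851 promoter windows of the same length, 14.8% held at least 1 match. Sp5 itself had 0.398 to 2.34 CPM in controls and 0.0428 to 0.824 CPM in depleted livers, which overlap, at -1.81 ± 0.65 (SE, edgeR adjusted p = 0.0478). That call was lost when any of control replicates 1, 2, 3, 4 or 6, depleted replicates 1, 2 or 3, or hepatectomised replicates 1 or 3 was left out, with edgeR adjusted p-values from 0.053 to 0.174. It was also lost with library size alone (0.074), a stricter low-count filter (0.0503), these 2 groups alone (0.061) and females alone (0.278).

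Zonated hepatocyte genes were followed with 20 pericentral and 16 periportal genes. In depleted livers 14 pericentral genes were lower, against 15.0% of all tested genes, and the median log2 fold change was -1.35. Cyp7a1, the rate-limiting enzyme of bile acid synthesis, had the largest fall at -3.71, followed by Cyp2e1 at -3.24, Cyp1a2 at -3.03, Gulo at -2.83, Rgn at -2.72 and Oat at -2.65. Glul, glutamine synthetase, fell by 1.35 on the log2 scale (edgeR adjusted p = 0.00909), and did not pass among females alone (-1.43, edgeR adjusted p = 0.0747). The other 6 did not pass, with values from -0.51 for Ahr to 1.06 for Slc13a3. Of the periportal genes, 4 were higher (Ctsc, Sdsl, Pck1 and Asl) and 4 lower, Etnppl and Cdh1 by the most, then Ass1 and Gls2, with a median of 0.23. Over all tested genes 18.9% were higher and 15.0% lower. Ass1 and Gls2 lost their calls in 5 and 9 of 24 alternatives, and Cdh1 did not pass among females alone (edgeR adjusted p = 0.0747). Sdsl, Pck1 and Asl did not pass without depleted replicate 3 (edgeR adjusted p = 0.0792, 0.067 and 0.131).

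After hepatectomy 1 pericentral gene was lower, Cyp7a1, and 2 were higher, Slc13a3 and Por, with a median of -0.15. Over all tested genes 2.36% were lower and 6.06% higher. The call of Cyp7a1 was lost without control replicate 6 or any 1 hepatectomised liver (edgeR adjusted p up to 0.129). Those of Slc13a3 and Por were lost without hepatectomised replicate 2 or 3 (up to 0.0737 and 0.152), and that of Por also without control replicate 1. Cyp2e1 and Glul did not pass there, at -0.58 and -0.17 (edgeR adjusted p = 0.177 and 0.825). Directly, 14 of the 20 were lower in depleted than in hepatectomised livers, against 10.1% of all tested genes. That count was 9 without control replicate 1, depleted replicate 1, or hepatectomised replicate 2 or 3, and 8 without depleted replicate 3.

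**Figure D4:**
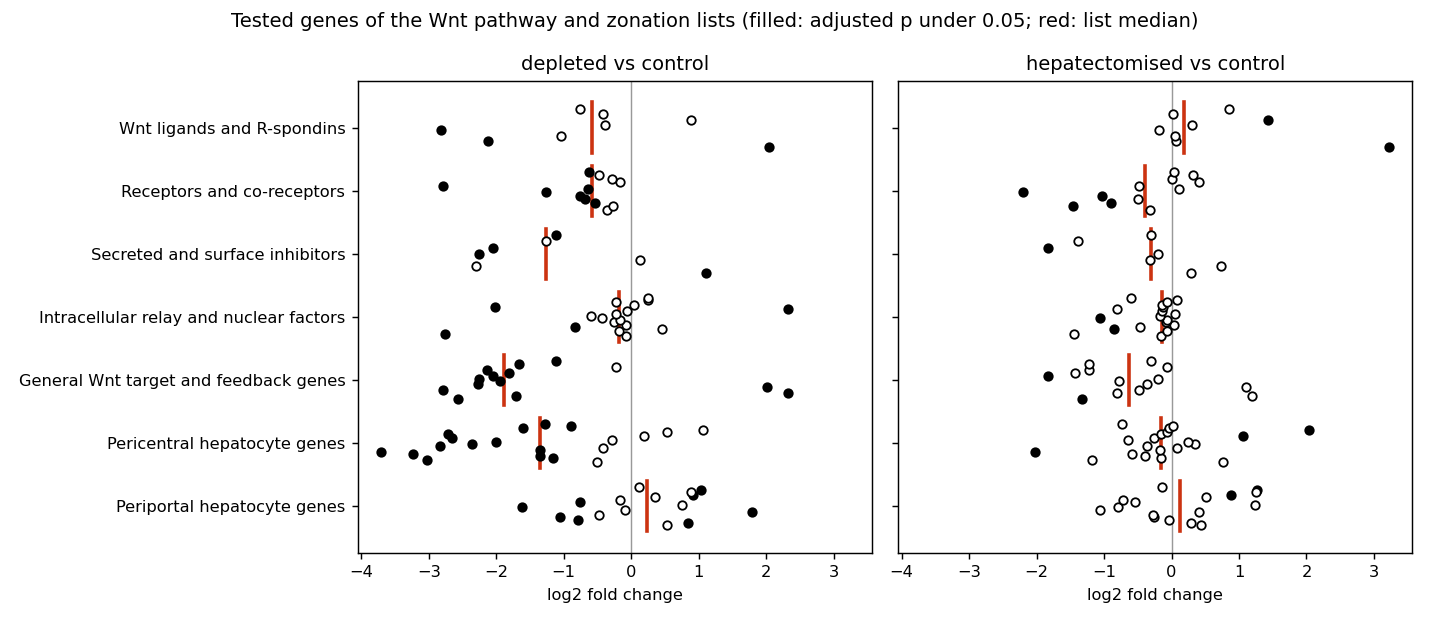
Log2 fold change of every tested gene of the pathway and zonation lists against control, for depleted (left) and hepatectomised livers (right); filled points have an adjusted p under 0.05 and red lines are list medians. Target and pericentral genes lie mostly to the left in depleted livers, with medians of -1.88 and -1.35, and nearer 0 after hepatectomy, at -0.63 and -0.15.

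Sex was examined in the 6 controls. None of the 9 genes that could be tested differed between 3 males and 3 females by edgeR's quasi-likelihood test, where 0.738% of all 13005 genes did, 0.384% higher and 0.354% lower in males. At an unadjusted p under 0.05 the count was 0 as well, and DESeq2 and limma-voom called 0. The widest difference was Wnt2, at -0.63 ± 0.53 (log2, male against female, SE, edgeR adjusted p = 0.589), with a 95% interval of -1.84 to 0.58.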

How the data were processed

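Whole-liver mRNA of 13 livers was sequenced from stranded libraries, per the labels' protocols. The authors deposited raw read counts per gene, and the table's header holds exon coordinates and a summed exon length in bases (its other measure). The submitters' processing notes name STAR 2.7.1a, SAMtools 1.15.1, featureCounts 1.6.4 and the build mm10. Strand setting and the treatment of multi-mapped reads are not given in the sources used here, although no exon base of the 10 genes was shared with another gene of the table. Of 22048 gene IDs, 21741 matched GENCODE M21 (GRCm38), and 99.94% of these overlapped the same locus.

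The 10 genes and all lists were chosen with earlier results of these data known. Counts were tested with edgeR 4.0.16 in R 4.3.3 (filterByExpr on the groups, TMM scaling, glmQLFit with robust estimation, glmQLFTest), with group and sex over all 13 libraries. P-values were adjusted by Benjamini-Hochberg over 13831 genes, two-sided, at 0.05. Standard errors are the log2 fold change divided by the square root of F. Sex was tested on the 6 controls alone (13005 genes). CPM are TMM-scaled, except the 3-count limits, and TPM use the deposited lengths. On counts simulated for depleted against control livers (13683 genes, 197 changed), the fit recovered 60.9% of 2-fold, 83.1% of 4-fold and 94.2% of 8-fold changes, with 9 false among 165 calls. Within groups, the lowest median chi-square per gene between libraries was 4.60, so all were kept as separate replicates. Reads carried no molecular identifiers, so limits cover counting error only. All 10 genes are named, and from each list at most 6 genes with an adjusted p under 0.05 per comparison, by absolute log2 fold change. Glul, Myc, Nkd2, Sp5, Tnfrsf19, Ccnd1, Ass1, Gls2 and genes named as not passing fall outside this rule and were chosen after their values were seen. Alternatives (other scalings, filters, DESeq2 1.42.0, limma-voom 3.58.1, other sets of libraries, a replicate block) are given in the closing section.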

Additional observations from a re-analysis of the deposited data

Results flagged for a closer look

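Of 20 sets of values tested (each gene in the 6 control and in the 4 depleted livers), 2 held a liver whose distance from its nearest neighbour was large relative to the range of its group, and chance gives about 1 in 20. Rspo1 was 0.621 CPM in depleted replicate 1, against 0.291 to 0.332 CPM in the other 3. Tbx3 was 75.2 CPM in control replicate 6, against 25.2 to 39.6 CPM in the other 5. Without that control, the fall of Tbx3 in depleted livers still passed.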

How the results depend on the processing

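In depleted livers the calls of Rspo3, Lgr4, Lgr5, Znrf3, Rnf43, Axin2 and Tbx3 against control held in all 24 alternatives, and those of Rnf43 and Axin2 after hepatectomy in all 23. With library size alone, 2192 genes were called after hepatectomy (28.6% of them higher, against 72% with TMM). The higher share moved from 55.7% to 66.2% in depleted livers against control, and from 56.8% to 83.6% directly. This scaling gave 4 receptors lower in depleted livers and 9 pericentral genes lower directly. It gave -0.15 for Rspo3, -0.17 for Wnt2 and -0.10 for Lgr4 after hepatectomy, and 0.10 for Rnf43 directly. DESeq2 called 1939 genes after hepatectomy and 445 by sex. Limma-voom gave Wnt2 -0.13 after hepatectomy. Fitting only the 2 groups of the direct comparison called 2105 genes and 8 pericentral genes lower. Females alone gave 2695 calls in depleted livers and 3 receptors lower, and Rspo1 did not pass (adjusted p = 0.0893). Leaving out control replicate 6 and depleted replicate 4 together, chosen after seeing the data, gave -0.12 for Rspo3 and -0.25 for Wnt2 after hepatectomy, and Tbx3 passed directly (-1.33, adjusted p = 0.0331). The cause of these shifts was not tested.

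Leaving out each replicate in turn gave 2960 to 4928 calls in depleted livers against control, lowest without depleted replicate 3. It gave 483 to 1458 after hepatectomy (692 without control replicate 1, 742 without control replicate 2 and 483 without hepatectomised replicate 2), 1709 to 3850 directly (lowest without depleted replicate 3), and 32 to 200 by sex. Receptors called lower numbered 4 to 7 in depleted and 1 to 4 in hepatectomised livers, and pericentral genes called lower directly 8 to 15. After hepatectomy Rspo3 ranged from -0.13 to 0.31 and Wnt2 from -0.85 to 0.51. Directly, Rspo1 ranged from -1.65 to 0.04 and Rnf43 from -0.38 to 0.07. By sex, Rspo3 ranged from -0.84 to 0.01, Wnt9b from -0.97 to 0.20, Lgr5 from -0.29 to 0.11 and Rnf43 from -0.13 to 0.19. None of these was called.

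Same-numbered livers did not deviate together throughout (residual r of -0.10 to 0.42, -0.19 to 0.08 and 0.04 to 0.27 in the 3 comparisons), so the labels' numbers were not taken as pairs. Their own number was the best match for 3 of 8, 0 of 6 and 4 of 6 livers. With a replicate block, 3887 genes were called in depleted livers, 632 after hepatectomy and 3170 directly. The block left 4 receptors lower in depleted livers, gave -0.23 for Rspo3 and -0.50 for Wnt2 after hepatectomy, and both Rspo1 calls were lost (adjusted p = 0.162 and 0.12). Depth limits Rspo1 most, since 3 counts are 0.0701 to 0.0848 CPM in controls.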

Other observations

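For each of the 10 genes, the 3 most alike genes over the 13 livers were taken by Pearson r of log2 CPM among up to 10577 expressed genes. The values describe these libraries only, since group differences enter every r. Rspo3 was most like Pam (0.960), Abi3bp (0.949) and Disp2 (0.948). Wnt2 was most like Clec4g, a marker of sinusoidal endothelium (0.952), and Wnt9b was most like Wnt2 (0.867). Lgr5 was most like Mrpl1 (0.966), Pdzk1 (0.959) and the stellate marker Vipr1 (0.958), and Rnf43 was most like Jade1 (0.983). The third gene for Znrf3 was the Wnt feedback gene Nkd1 (0.936). The first for Axin2 was Fbxo21 (0.977) and the first for Rspo1 was Hspa2 (0.899).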
